A study of Selenicereus undatus with 4 samples.

Results

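The genes described here are 2 homologs of florigen and 7 genes annotated as FT-interacting protein 1 (FTIP1), 9 of the 11051 genes listed by the authors as differentially expressed between the NL and L2 stages of pitaya. They were taken by their unigene numbers, and each of them was found in the table. The plants were 1-year-old 'Jindu No.1' red-fleshed pitaya grown in winter, and the tissue was the stem around the thorn seat, where flower buds arise. NL plants received no supplementary light at night and did not flower, whereas L2 plants received supplementary light at night and were sampled 1 week after the bud stage. Each stage had 3 libraries, and each library mixed several plants. NL and L2 therefore differ in light and in bud development at once, and these cannot be told apart from NL and L2 alone. The study also sampled plants that received light and did not flower (L0), which were not analysed here. The hour of sampling is not given in the sources used here.

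Florigen is a small protein of the phosphatidylethanolamine-binding (PEBP) family, called FT in Arabidopsis and Hd3a in rice. It is made in the companion cells of the phloem, mostly in leaves under inductive day length, and moves through the sieve tubes to the shoot apex, where it joins the bZIP factor FD and 14-3-3 proteins to switch on genes of the floral meristem. In Arabidopsis, FTIP1 is a membrane protein with several C2 domains that helps FT pass from companion cells into sieve elements. QUIRKY belongs to the same protein family and also takes part in FT transport in Arabidopsis. Cacti such as pitaya carry out photosynthesis in the stem, so the sampled tissue can hold light-sensing cells, phloem and buds together.

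The annotations were checked against the other columns of the table. Both florigen homologs carried the symbol HD3A, and both were assigned to the KEGG pathway circadian rhythm - plant. The symbol of all 7 FTIP1 genes was QKY (QUIRKY), so a member of this list may correspond to either protein. A cell-cell junction term was given to 2 of them, Unigene0045680 and Unigene0038103, and the other 5 had no term for a cellular component. The table holds 9 rows with the symbol QKY. The 2 outside the list are Unigene0043301, annotated as protein QUIRKY, and Unigene0048490, which has the same FTIP1 annotation as the 7 members. The long unigenes (Unigene0042376, Unigene0045680, Unigene0038103 and Unigene0038104) were 3327 to 3726 nt, and the short ones (Unigene0002836, Unigene0006372 and Unigene0025249) were 659 to 1325 nt. Unigenes of the same annotation may be pieces of 1 transcript or may share reads, which was not tested.

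Levels are given as RPKM, the reads on a unigene divided by its length and by the total reads of the library. The read numbers behind them were recovered from the deposited values, and the totals were 3860701 to 5269237 reads per library in NL and 5803177 to 7533457 in L2. Where no read of a gene was seen in a stage, its fold is a lower bound, computed as if that stage had held 3 reads in total (the floor). Floors and intervals of reads cover counting error only. In bulk tissue, fewer cells of a type and less RNA per cell cannot be told apart. The test was limma on log2(RPKM + 0.1), two-sided, with Benjamini-Hochberg adjustment over all listed genes, and log2 changes are L2 minus NL. The listed genes had been called on the same libraries, so this test is not independent of their selection, and p-values measure the spread between the libraries of a stage.

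The 2 florigen homologs moved in opposite directions. Unigene0019970, the HEADING DATE 3A-like gene, had an RPKM of 17.6, 32.6 and 26.6 in the NL libraries, from 71, 112 and 125 reads. It had no read in any of the L2 libraries. In NL it was the most abundant of the 9 genes, and its mean RPKM of 25.6 ± 7.54 (SD, n = 3) was above that of 85.8% of the listed genes. The level in L2 was at least 145.5-fold lower than in NL, and the floor of 3 reads over L2 equals an RPKM of 0.176. The fitted log2 change was -7.96 ± 0.48 (SE), with a limma adjusted p of 3.45e-05, and the gene passed the test under each of the 13 alternative settings. These settings called from 6800 to all 11051 of the listed genes, so passing them is common in the table.

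Unigene0000385, the flowering locus T-like gene of 483 nt, was low in both stages. Its RPKM was 0, 1.07 and 0 in NL and 1.10, 5.35 and 4.99 in L2. These values rest on 2 reads in NL, both in NL replicate 2, and on 4, 15 and 14 reads in the L2 libraries. L2 replicate 1 thus lay next to NL replicate 2, and their 95% exact Poisson intervals overlapped, at 0.2995 to 2.81 and 0.130 to 3.87 RPKM. The ratio of mean RPKM was 10.7, and that of reads per total was 11.8 with a 95% exact interval of 3.01 to 101. The log2 change was 3.82 ± 1.09 (SE) with a limma adjusted p of 0.0101. The gene did not pass in edgeR with TMM factors (adjusted p = 0.0552) or in DESeq2 (adjusted p = 0.159). Without NL replicate 2 its log2 change was 5.01 (limma adjusted p = 0.00192). NL replicate 2 also stood apart in 40 listed genes with at least 10 reads there and at least 5 times the level of the other NL libraries, 9 of them for photosystem, chlorophyll a-b binding or ribulose bisphosphate carboxylase proteins, against 17 to 28 such genes and no such proteins in the other 5 libraries. The part of this in the 2 reads of Unigene0000385 was not tested.

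**Figure D1:**
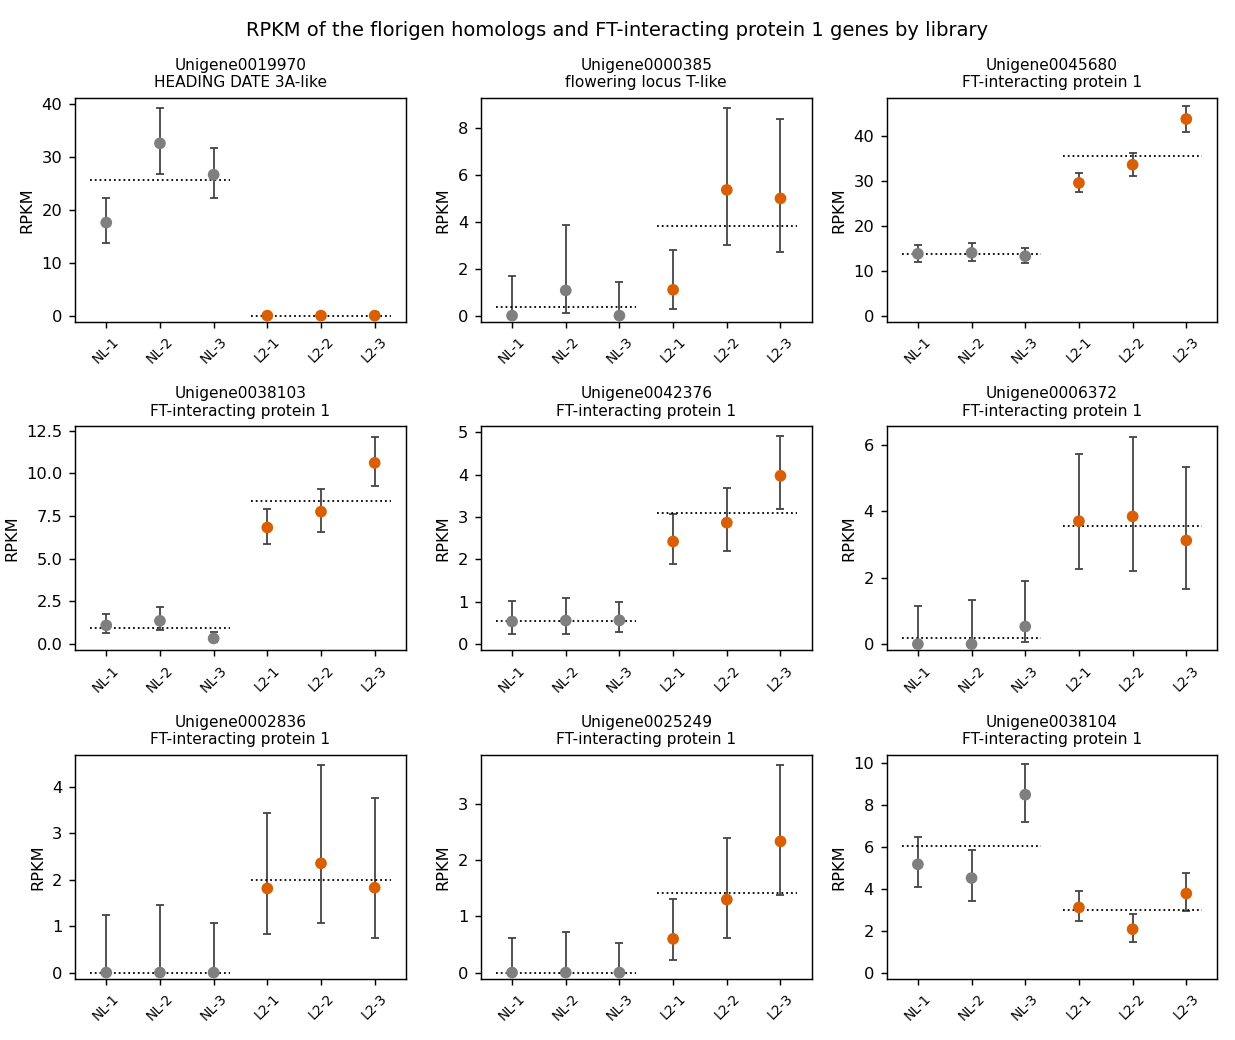
RPKM of each of the 9 genes in the 3 NL (grey) and 3 L2 (orange) libraries, 1 panel per gene with its own linear axis from 0. Vertical lines are 95% exact Poisson intervals of the reads and dotted lines are stage means. The HEADING DATE 3A-like gene lies at 17.6 to 32.6 in NL and at 0 in L2, and Unigene0038104 is the only FTIP1 gene of the 7 that is lower in L2.

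Of the 7 FTIP1 genes, 6 were higher and 1 was lower in L2. Unigene0045680 was the most abundant of them in both stages. Its RPKM was 13.8, 13.997 and 13.2 in NL and 29.6, 33.7 and 43.8 in L2, so that the lowest L2 library was well above the highest NL library. The NL libraries differed little from each other (SD 0.387), whereas the SD of the L2 libraries was 7.35. The mean in L2 was 2.61 times that in NL, and the log2 change was 1.36 ± 0.20 (SE), with a limma adjusted p of 4.87e-04. Its call was lost in DESeq2, where the log2 change was 0.30 and the adjusted p 0.232, and in edgeR with TMM factors the adjusted p was 0.0414. In edgeR with library totals the log2 change was 1.38, with an adjusted p of 1.07e-04. That fit called all 11051 listed genes, so a pass in it does not set this gene apart.

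The other long FTIP1 genes that rose were much lower in NL. Unigene0038103 had an RPKM of 1.10, 1.36 and 0.333 in NL and 6.83, 7.76 and 10.6 in L2. The L2 mean was 9.03 times the NL mean, with a log2 change of 3.20 ± 0.56 (SE) and a limma adjusted p of 0.00112. Unigene0042376 had 0.533, 0.556 and 0.560 in NL and 2.42, 2.87 and 3.97 in L2. Its L2 mean was 5.62 times the NL mean, with a log2 change of 2.27 ± 0.47 (SE) and a limma adjusted p of 0.00245. In these 2 genes, as in Unigene0045680, L2 replicate 3 was the highest library and L2 replicate 1 the lowest. Each kept its call under the 13 alternative settings, which also called most of the listed genes.

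The short FTIP1 unigenes had next to no reads in NL. Unigene0006372 had 0, 0 and 2 reads in NL and 20, 16 and 13 reads in L2, an RPKM of 3.70, 3.85 and 3.12. The ratio of its mean RPKM was 20.2, and that of reads per total was 17.5 with a 95% exact interval of 4.59 to 148. Unigene0002836 had no reads in NL and 9, 9 and 7 reads in L2, and its mean RPKM of 2.00 ± 0.31 (SD, n = 3) was at least 5.997-fold higher than the floor in NL. Unigene0025249 had no reads in NL and 6, 10 and 18 reads in L2, and was at least 8.53-fold higher in L2. These 3 genes passed the limma test with adjusted p of 0.00131, 7.36e-05 and 4.15e-04. Unigene0002836 did not pass in DESeq2 (adjusted p = 0.0527). Unigene0025249, at 0.601, 1.30 and 2.34 RPKM in L2, was the only one of the 9 genes that did not reach an RPKM of 1 in 3 libraries.

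Unigene0038104 went the other way. Its RPKM was 5.17, 4.52 and 8.499 in NL and 3.11, 2.07 and 3.78 in L2, with 40 to 149 reads per library. NL replicate 3 was well above the other NL libraries, and the gap between the stages lay between 3.78 and 4.52. The mean in NL was 2.03 times that in L2. The log2 change of -0.98 ± 0.40 (SE) was the smallest of the 9 in size, and its limma adjusted p was 0.0426. The call did not hold without NL replicate 1 (adjusted p = 0.0678), NL replicate 3 (0.142), L2 replicate 1 (0.0742) or L2 replicate 2 (0.113). In edgeR with TMM factors and in DESeq2 the log2 change was larger in size, at -1.90 and -2.13.

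All 9 genes passed the limma test, 7 higher and 2 lower in L2. The background is nearly as high, because the table lists called genes. Of all listed genes, 99.3% passed in either direction, 63.0% higher and 36.3% lower in L2, so that the number of calls is no result about these genes. In all 9 genes the NL values and the L2 values formed separate ranges, which was also the case in 97.6% of all listed genes. The median log2 change of the FTIP1 genes was 3.20, beside 1.43 over all listed genes. With stages without reads put at their floor, the log2 ratio of the stage means had a median of 2.58 in the FTIP1 genes and 1.44 in all listed genes. The short FTIP1 unigenes, with next to no reads in NL, had limma log2 changes of 4.30, 4.38 and 3.74. The long ones had 1.36, 3.20, 2.27 and -0.98, and Unigene0048490, outside the list, had 1.62. The medians thus rest in part on genes near the floor and are no result about FTIP1 genes. TMM factors and the size factors of DESeq2 were both computed on the listed genes only. Compared with library totals, they shifted the level of L2 relative to NL down by 0.85 and 1.08 on the log2 scale. Both methods take most genes to be unchanged, whereas the table lists called genes. A call lost there cannot be told apart from this shift. No gene of the 9 changed its direction under these or any other setting. In edgeR all 9 passed with library totals and 8 with TMM factors, and 6 passed in DESeq2. Of all 11051 listed genes, 11051, 8309 and 6800 passed in these 3 fits.

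**Figure D2:**
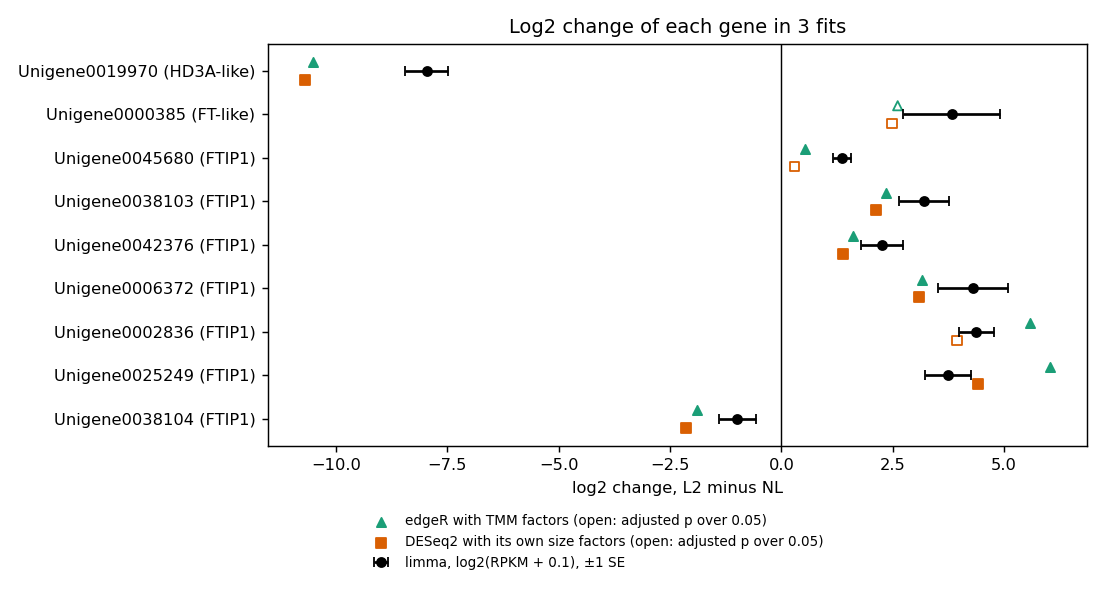
Log2 change (L2 minus NL, linear axis) of each of the 9 genes in limma with its SE (black), in edgeR with TMM factors (triangles) and in DESeq2 (squares), where open symbols have an adjusted p over 0.05. The 2 genes below 0 are the HEADING DATE 3A-like gene at -7.96 and Unigene0038104 at -0.98 in limma, and the other 7 lie above 0 in all 3 fits.

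The florigen homologs were then set against the FTIP1 genes within each library, as summed RPKM. The sums cover genes of the list only and are not the total of either family. The paper reports other flowering locus T genes as higher at the flower bud stage (L1) than in NL. Those are not among the listed genes, and their level in L2 was not analysed here. For the genes described here, the paper reports Unigene0019970 as lower in L0 than in NL, by RNA-Seq and by qRT-PCR. Its supplement lists 6 of the FTIP1 genes, all but Unigene0038104, as higher in L1 than in L0. In NL the florigen sum was 17.6, 33.6 and 26.6 and the FTIP1 sum was 20.6, 20.4 and 23.2. In L2 the florigen sum was 1.10, 5.35 and 4.99 and the FTIP1 sum was 48.1, 53.9 and 69.5. Per length, the FTIP1 sum was above the florigen sum in 1 of 3 NL libraries and in all 3 L2 libraries. The FTIP1 sum over the florigen sum was 1.17, 0.608 and 0.870 in NL and 43.7, 10.1 and 13.9 in L2. The ratio averaged 0.883 ± 0.282 over the NL libraries and 22.6 ± 18.4 over the L2 libraries (SD, n = 3). L2 replicate 1, with 4 reads of florigen homologs in all, gave the highest ratio, and without it the L2 mean was 12.0. On reads not divided by unigene length, where the long FTIP1 unigenes weigh more, the mean ratio was 3.45 in NL and 149 in L2. The florigen sum was made of different genes in the 2 stages, with the HEADING DATE 3A-like gene at 96.8% or more of it in every NL library and at 0% in every L2 library. These sums and ratios are given as a description, and no correlation was computed, since the 6 libraries fall into the 2 stages.

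The ratio depended on which FTIP1 genes were counted. Unigene0048490, the FTIP1 row outside the list, had an RPKM of 65.0, 72.2 and 33.2 in NL and 178, 215 and 119 in L2. It held 58.9% to 77.9% of the FTIP1 sum in NL and 63.1% to 80.0% in L2 when it was added, and its log2 change was 1.62 ± 0.34 (SE, limma adjusted p = 0.00264). In DESeq2 it was 0.54 and did not pass (adjusted p = 0.173), and with TMM factors it was 0.76 (adjusted p = 0.0323). With it the FTIP1 sum over the florigen sum was 2.12 to 4.87 in NL and 37.7 to 205 in L2. Unlike in the list, the FTIP1 sum then exceeded the florigen sum in every NL library too.

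**Figure D3:**
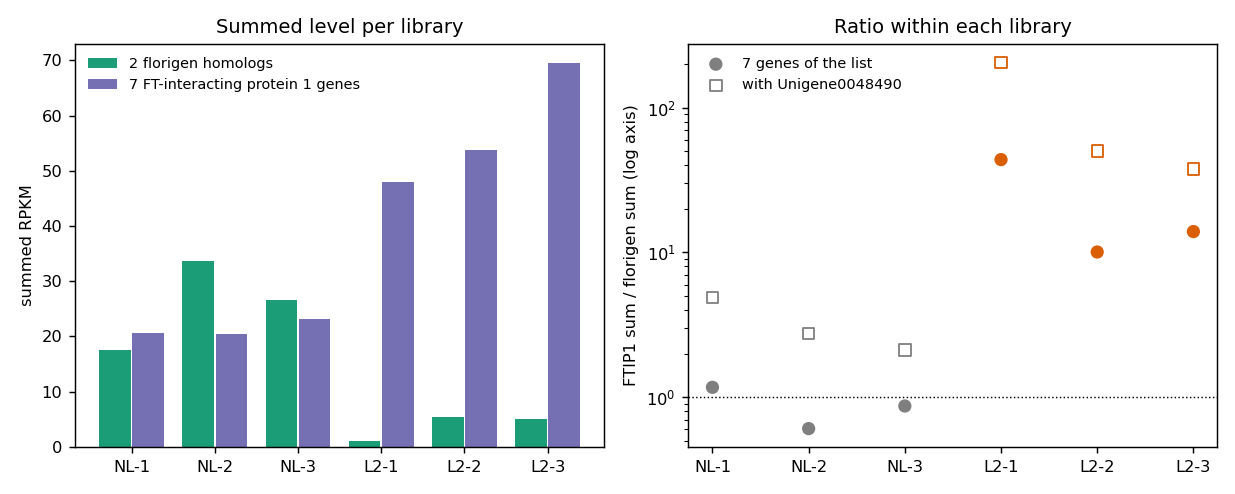
Left, summed RPKM of the 2 florigen homologs and of the 7 FTIP1 genes in each library (bars from 0). Right, the ratio of these sums on a log axis for the 7 genes (filled) and with Unigene0048490 added (open squares), with a dotted line at 1, where the 7-gene ratio lies at 0.608 to 1.17 in NL and at 10.1 to 43.7 in L2.

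The makeup of the FTIP1 sum also differed between the stages. Unigene0045680 held 57.2% to 68.5% of it in NL and 61.6% to 63.1% in L2, and these ranges overlapped. Unigene0038104 held 22.1% to 36.7% in NL and 3.85% to 6.47% in L2. Unigene0038103 held 1.44% to 6.67% in NL and 14.2% to 15.3% in L2. These last 2 genes have consecutive numbers and similar lengths (3327 and 3420 nt), and were compared after their values had been seen. The ratio of Unigene0038103 to Unigene0038104 was 0.212, 0.302 and 0.0392 in the NL libraries and 2.20, 3.75 and 2.81 in the L2 libraries, so that Unigene0038104 was the higher of the pair in each NL library and the lower in each L2 library. A ratio within a library does not depend on the scaling between libraries.

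**Figure D4:**
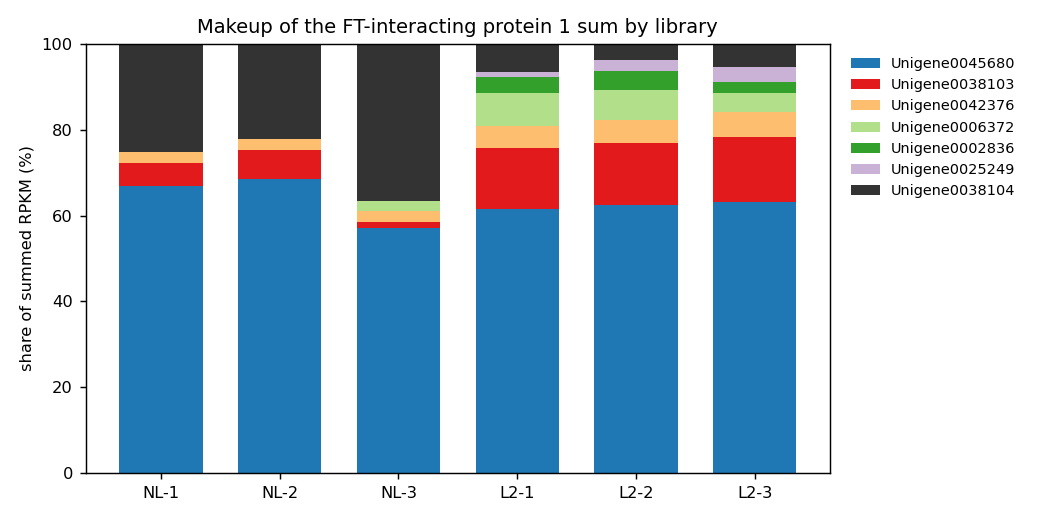
Share of each of the 7 FTIP1 genes in their summed RPKM (%), stacked to 100 for each library. Unigene0045680 takes 57.2% to 68.5% in every library, while Unigene0038104 takes 22.1% to 36.7% in NL and 3.85% to 6.47% in L2.

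The order of the 9 genes within a stage was read from their RPKM ranges. In NL the HEADING DATE 3A-like gene came first, followed by Unigene0045680 and Unigene0038104, and the ranges of these 3 genes did not overlap with each other or with that of the next gene. The remaining 6 genes had mean RPKM values of 0 to 0.931 and each overlapped with its neighbour in the order. In L2 Unigene0045680 came first at 35.7 ± 7.35 and Unigene0038103 second at 8.40 ± 1.98 (SD, n = 3), without overlap. The flowering locus T-like gene, Unigene0006372, Unigene0042376 and Unigene0038104 followed with means of 3.81, 3.56, 3.09 and 2.99, and neighbours among them overlapped.

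Other genes of the florigen pathway were taken from lists of words in the annotations. The PEBP list held 4 genes, the 2 florigen homologs and 2 homologs of MOTHER OF FT AND TFL1, a relative of florigen that acts in seed germination in Arabidopsis. These 2 also moved in opposite directions. Unigene0028774 fell from 5.29, 7.05 and 7.44 RPKM in NL to 1.16, 1.13 and 1.13 in L2, a log2 change of -2.42 ± 0.38 (SE, limma adjusted p = 7.19e-04). Unigene0032460 rose from 5.85, 6.35 and 4.28 to 12.5, 18.3 and 12.7, a log2 change of 1.38 ± 0.28 (SE, limma adjusted p = 0.00210), which was 0.56 with TMM factors (adjusted p = 0.183) and 0.34 in DESeq2 (adjusted p = 0.465). No row of the table matched TERMINAL FLOWER 1 or CENTRORADIALIS, the family members that hold back flowering, and genes outside the table were not analysed here.

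The list of C2 domain membrane proteins held 14 genes, 7 of them the FTIP1 members. Of the 7 others, 6 were higher and 1 was lower in L2. Of all 14, 12 passed as higher in limma, 10 with TMM factors and 6 in DESeq2. The lower one was Unigene0043301, annotated as protein QUIRKY, at 8.18, 7.27 and 9.32 RPKM in NL and 1.33, 3.57 and 3.91 in L2 (log2 change -1.59 ± 0.45 SE, limma adjusted p = 0.0101). Synaptotagmins are C2 domain proteins of membrane contact sites in plants. Unigene0044020, annotated as synaptotagmin-3, rose from 2.33, 2.49 and 1.91 to 4.56, 10.6 and 7.89 RPKM (log2 change 1.66 ± 0.41 SE, limma adjusted p = 0.00529), but did not pass with TMM factors (adjusted p = 0.0518) or in DESeq2 (adjusted p = 0.166). In DESeq2, Unigene0052340, a C2 and Arm domain protein, turned from a log2 change of 0.99 in limma to -0.07.

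Partners of FT in other plants were represented by 19 genes. In L2, 14 of these had risen and 5 had fallen, with a median log2 change of 1.40, while 7 passed as higher with TMM factors and 6 in DESeq2, and the same number, 5, as lower in each. FD, the bZIP factor that FT joins at the apex, was represented by Unigene0026625. It rose from 0.864, 0.676 and 0.495 to 1.39, 4.27 and 4.49 RPKM (log2 change 2.02 ± 0.60 SE, limma adjusted p = 0.0121), but did not pass in edgeR with TMM factors (adjusted p = 0.111) or in DESeq2 (adjusted p = 0.265). SODIUM POTASSIUM ROOT DEFECTIVE 1 aids FT movement in Arabidopsis phloem, and the 3 listed homologs of this family were higher in limma. Of these, Unigene0028636 did not pass with TMM factors (adjusted p = 0.387) or in DESeq2 (adjusted p = 0.742), nor did Unigene0027193 in DESeq2 (adjusted p = 0.147). Of 6 genes for 14-3-3 proteins, which bridge florigen and FD in rice, 5 were higher and 1 was lower, and 3 of the 5 passed as higher with TMM factors and in DESeq2. The calls lost in both were those of Unigene0033502, with a log2 change of 0.02 in DESeq2, and Unigene0034570. The largest changes among partners of at least 1 RPKM in both stages were those of 2 14-3-3 genes. Unigene0036051 went from 16.8, 8.40 and 5.31 to 69.2, 74.8 and 73.9 RPKM, and Unigene0036052 from 21.4, 20.1 and 23.5 to 149, 170 and 139 RPKM. Syntaxins, membrane fusion proteins of which one works with QUIRKY in Arabidopsis, were split, with 5 of 9 genes higher and 4 lower in limma, and 2 higher and 4 lower with TMM factors and in DESeq2.

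The regulators upstream of FT went mostly down. Of 26 genes, 20 were lower and 6 were higher in L2, and their median log2 change was -1.95 beside 1.43 over all listed genes. CONSTANS acts on the FT promoter in Arabidopsis, and 8 of 11 CONSTANS-LIKE genes, homologs of its family, were lower. Whether these genes act on FT in pitaya was not tested. Unigene0029386 (CONSTANS-LIKE 2) fell from 119, 116 and 168 to 1.36, 9.10 and 3.41 RPKM, a log2 change of -5.20 ± 0.59 (SE, limma adjusted p = 1.51e-04). Cyclic Dof factors repress CONSTANS and FT in Arabidopsis, and 3 of 4 were lower. Unigene0031426 (cyclic dof factor 1) fell from 70.5, 76.3 and 109 to 1.81, 5.25 and 4.16 RPKM, a log2 change of -4.57 ± 0.39 (SE, limma adjusted p = 6.14e-05). Unigene0026233, a subunit of nuclear transcription factor Y, changed from a log2 change of 1.03 in limma to -0.05 in DESeq2.

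The word list set up as downstream of florigen gave 7 higher and 4 lower of 11 in limma, with 4 passing as higher with TMM factors and 2 in DESeq2. Whether its genes answer to florigen in pitaya was not tested. The LEAFY homolog Unigene0024655, a regulator of floral meristem identity, had no reads in NL and 0.299, 1.55 and 2.33 RPKM in L2, and was at least 5.63-fold higher, but did not pass in DESeq2 (adjusted p = 0.0886). The SQUAMOSA PROMOTER-BINDING-LIKE (SPL) factors promote the passage to flowering in Arabidopsis, and 5 of 8 were higher in limma, 3 with TMM factors and 2 in DESeq2. Unigene0023904 (SPL4) fell from 28.8, 26.4 and 20.5 to 0.472, 2.45 and 0.408 RPKM, a log2 change of -4.79 ± 0.62 (SE, limma adjusted p = 2.82e-04). Unigene0032575 (SPL8) rose from 0.608, 0 and 2.75 to 10.5, 21.9 and 31.3 RPKM, a log2 change of 5.05 ± 1.11 (SE, limma adjusted p = 0.00330). The background beside all of these counts is the same 63.0% higher and 36.3% lower, and no list was tested as a set.

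**Figure D5:**
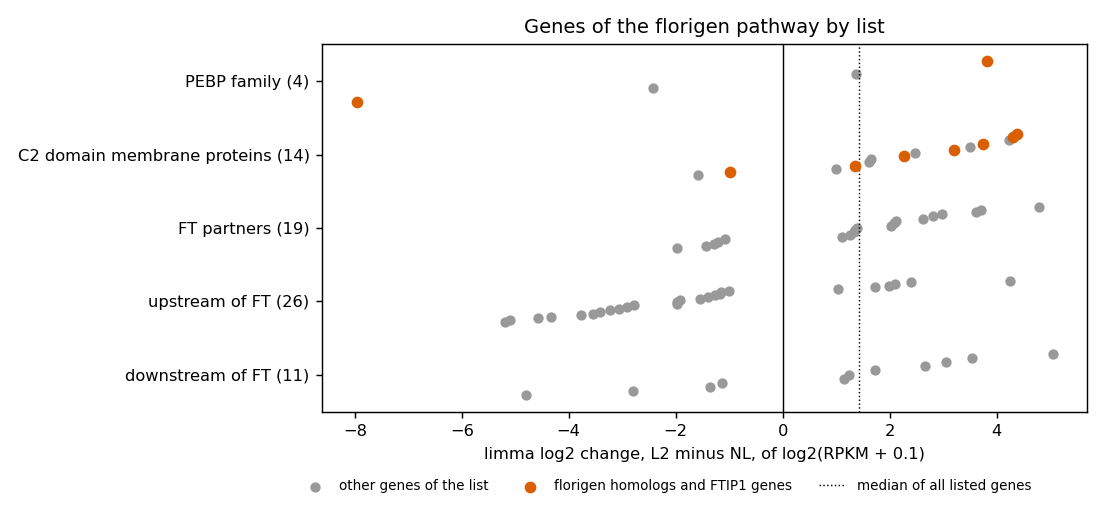
Limma log2 change (L2 minus NL) of every listed gene in the 5 pathway lists, 1 point per gene, with the 9 florigen and FTIP1 genes in orange and the number of genes in brackets. The dotted line is the median of all listed genes at 1.43, and 20 of 26 upstream regulators lie below 0.

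Markers of the cell types that the samples could hold moved with the stages as well. Of the 14 listed genes of phloem and companion cells, where FT and FTIP1 act in Arabidopsis, 12 were higher and 2 were lower in L2, and their summed RPKM was 66.1 to 93.2 in NL and 105 to 112 in L2. With TMM factors 9 of the 14 passed as higher, and in DESeq2 7. In NL 3 of the 14 had no reads. Of 42 stem chlorenchyma genes 38 were lower and none was higher, with 4 not passing the test, and their sum was 6476 to 7936 in NL and 1072 to 2331 in L2, with 3 of them at 0 in L2. Among 10 floral organ genes 9 were higher and 1 was lower, with sums of 18.5 to 31.8 in NL and 178 to 269 in L2 and 2 genes at 0 in NL. Of 10 cyclin genes, all 9 D cyclins were higher and the B cyclin Unigene0028111 was lower (log2 change -1.66), with sums of 33.2 to 40.02 in NL and 94.8 to 159 in L2 and 1 gene at 0 in NL, and no A cyclin was listed. Of 7 meristem genes 5 were higher and 2 were lower, and their sum was 138 to 161 in NL and 66.3 to 90.0 in L2, with 2 at 0 in NL. Beside these counts, 63.0% of all listed genes were higher and 36.3% lower in L2 in limma, and the meristem count is near that share. The part of these shifts in the levels of the florigen and FTIP1 genes was not tested.

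The genes most like the leading florigen homolog and the leading FTIP1 gene were found by Pearson's r of log2(RPKM + 0.1) over the 6 libraries, among 8079 genes with a named product and a mean RPKM of at least 1. The 2 stages dominate such an r, and 1955 genes reached 0.9 with the HEADING DATE 3A-like gene and 3519 with Unigene0045680. The 3 genes most like the HEADING DATE 3A-like gene were Unigene0050618 (retrotransposon protein, r = 0.9995), Unigene0051523 (phosphoenolpyruvate carboxylase, r = 0.9995) and Unigene0057592 (NRT1/PTR family 5.1, r = 0.9991). Each of them was at 0 in all L2 libraries. Those most like Unigene0045680 were Unigene0032491 (cytochrome P450 CYP76AD8, r = 0.9991), Unigene0004790 (methyltransferase-like protein 23, r = 0.99902) and Unigene0040700 (a BTB/POZ domain protein, r = 0.99901). Unigene0004790 was at 5.62 to 5.87 RPKM in NL and at 11.2 to 15.3 RPKM in L2, with L2 replicate 3 highest, as in Unigene0045680.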

How the data were processed

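Unigenes were built by the authors with Trinity, and Bowtie2 was used to place reads on them. The counter is not given in the sources used here. The authors deposited an RPKM value for each library and, as estimated counts that need not be whole, the mean read count of each stage. Columns of the authors' own comparison (log2 ratio, p-value and FDR) were not used. The table holds only genes past the authors' thresholds (FDR 0.05, absolute log2 ratio 1). The labels give 1 sample per stage, and the 3 libraries of a stage are columns of that sample. L0 and L1 were not analysed here.

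Reads per library, totals and unigene lengths were recovered from RPKM and mean counts. All of 59302 values above 0 came out whole within 0.05 reads. The stages were compared with limma 3.58.1 (R 4.3.3, trend option) on log2(RPKM + 0.1) over 11051 genes, and an adjusted p of at most 0.05 was called. For low genes the fitted log2 change depends on the pseudocount and can lie below or above the log2 ratio of mean RPKM. It was 2.27 against 2.49 in Unigene0042376 and 3.82 against 3.42 in Unigene0000385. Alternatives were pseudocounts of 1 and 0.01, keeping genes that reached an RPKM of 1 in 3 or more libraries, a replicate block, leaving out each library, and edgeR 4.0.16 (quasi-likelihood, with TMM factors or library totals) and DESeq2 1.42.0 on the recovered reads. The scripts were tested on simulated data. Other steps used Python 3.11.15.

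The members and word lists were chosen with earlier results of these data known. From each pathway list the text names the 2 genes of the largest change in mean RPKM, up or down, where both stage means reached 1. FD, LEAFY, QUIRKY, the B cyclin and the genes named for a turned direction or a lost call were chosen after their values were seen. No sequences are shown, and a reference was not used here.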

Additional observations from a re-analysis of the deposited data

How the results depend on the processing

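Each of the 9 genes kept its direction under every setting run, and of 116 alternative values for single genes 108 kept their side of the threshold and 8 lost the call. The 8 were 4 of Unigene0038104 with a library left out, 2 of Unigene0000385, and 1 each of Unigene0045680 and Unigene0002836 in edgeR or DESeq2. The number of the 9 genes called was 8 to 9 when a library was left out and 6 at the lowest, in DESeq2. Over all listed genes 10974 were called by limma, and 10165 to 10529 when a library was left out. In DESeq2 6800 were called, 2779 higher and 4021 lower in L2, and in edgeR with TMM factors 8309, of which 4268 were higher and 4041 lower. Both used factors computed on the listed genes only, and edgeR with library totals called 11051. Sums of reads scaled by the library total alone, in place of RPKM, moved the mean ratio of the FTIP1 sum to the florigen sum to 3.45 in NL and 149 in L2. Adding Unigene0048490, chosen after seeing the data, moved it to 3.25 and 97.8. When a library was left out it was 0.739 to 1.02 in NL and 12.0 to 28.8 in L2. Leaving out genes with under 3 reads in a stage removed both florigen homologs, so it gave no ratio. Libraries of the same number deviated together only weakly (Pearson's r across genes of 0.04, 0.02 and 0.06). Libraries of different numbers had r of -0.046 to 0.011. Whether the same number stands for anything shared was not tested. With a replicate block 10894 genes and all 9 florigen and FTIP1 genes were called. Depth limits 5 of the 9 genes, which had under 3 reads over a stage.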

Other observations

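Genes of the sieve elements, through which florigen travels, did not all move together. The table lists 10 homologs of SIEVE ELEMENT OCCLUSION, filament proteins of sieve elements, of which 9 were higher and 1 was lower in L2 (8 higher with TMM factors and 6 in DESeq2). Over all listed genes 63.0% were higher and 36.3% lower in limma. The lower one, Unigene0006884, was the most abundant of them in NL at 45.1 ± 8.20 RPKM and stood at 8.81 ± 3.55 in L2 (SD, n = 3, log2 change -2.40, limma adjusted p = 2.83e-04). Unigene0050521 went from 0.226 ± 0.392 to 20.3 ± 5.44 RPKM (log2 change 6.65, limma adjusted p = 2.57e-04). The sucrose transporters were split, with SUC4 (Unigene0036690) lower at a log2 change of -1.52 (limma adjusted p = 0.00115) and SUC3 (Unigene0043234) higher at 1.64 (limma adjusted p = 4.72e-04). The choice of these genes followed a look at their values.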
